A study of Mus musculus with 18 samples.

Results

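The nuclear-encoded subunits of the respiratory chain and ATP synthase were taken as a set of genes and followed through 6 groups of mouse libraries. Members were every row of the expression table whose gene symbol starts as a subunit of complex I (Nduf with a, b, c, s or v and a number), complex II (Sdha to Sdhd), complex III (Uqcr), complex IV (Cox4 to Cox8) or ATP synthase (Atp5), leaving out names that contain -ps and assembly factors named Ndufaf. This gave 84 of 46983 genes: 35 of complex I, 4 of complex II, 8 of complex III, 20 of complex IV and 17 of complex V. The rule uses gene names and no measured value. The name rule leaves out subunits with other names, such as Ndufab1, the acyl carrier protein of complex I, so the members are not every nuclear subunit. It takes in Atp5s and Atp5sl, which share the prefix but were not classed as subunits.

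The study profiled lipochondrocytes, the lipid-filled cartilage cells of the outer ear, at 5 postnatal ages from RNA sequencing (days 8, 10, 13, 21 and 33, written P8 to P33), with inguinal fat adipocytes at P33 as the comparison cell. All 6 groups had 3 libraries, and all 18 libraries carry the labels C57BL/6 and Wnt1-Cre2;TdTomato, the adipocytes included. Wnt1-Cre2 is a Cre driver of the neural crest lineage, and TdTomato is the red reporter that it switches on. Cells of P8, P10 and P13 were released with collagenase and sorted by a gate for high TdTomato, whereas the floating layer after centrifugation was taken for the adipocytes and for lipochondrocytes of P21 and P33. Age and isolation method therefore change together between P13 and P21 and cannot be told apart there. Nothing in the labels says that the libraries of a group came from separate animals, so p-values measure the spread between libraries, which may be technical.

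The respiratory chain sits in the inner mitochondrial membrane and passes electrons from NADH (complex I) or succinate (complex II) through coenzyme Q, complex III and cytochrome c to complex IV, where oxygen is reduced. Complexes I, III and IV pump protons, and ATP synthase (complex V) uses the returning protons to make ATP. All complexes except complex II combine subunits encoded in the nucleus with subunits encoded in mitochondrial DNA, and complex IV also exchanges some nuclear subunits for isoforms restricted to tissues such as muscle, brown fat and lung. White adipocytes store fat in a single droplet and use mitochondria for lipid synthesis and fat oxidation, while cartilage is a poorly vascularised tissue whose cells rely largely on glycolysis.

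Libraries held 12461965 to 27640142 reads, of which 73.19% to 84.44% aligned. Values are FPKM, fragments per kilobase of gene, scaled by the mapped fragments of the library, and the tests used limma on log2(FPKM + 1), a scale that understates the change of low genes. A gene was called when its Benjamini-Hochberg adjusted p over the 13815 genes tested lay under 0.05. The cell types matched their labels: summed chondrocyte markers reached 16296 to 28360 FPKM in lipochondrocytes and 1.42 to 2.16 in adipocytes, and summed adipocyte markers 85876 to 91446 FPKM in adipocytes and at most 38.97 in lipochondrocytes. The adipocyte libraries also held more RNA of other fat-depot cells than P33 lipochondrocytes: endothelial markers summed to 643.37 to 677.87 FPKM against 9.28 to 12.4, macrophage markers to 752.02 to 814.68 against 31.51 to 59.32, and erythroid markers to 961.66 to 1030.51 against 43.62 to 147.01, with Slc4a1 at 0 in both. Their part in the adipocyte comparisons was not tested. In these bulk libraries, fewer cells of a type and less RNA per cell cannot be told apart.

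Of the 84 members, 82 passed the filter of at least 1 FPKM in at least 3 libraries, and 76 reached 1 FPKM in all 18. The 2 that did not pass are tissue-restricted complex IV isoforms: Cox8c was listed at 0 in every library, and Cox7b2 at 0 in every library except P21 library 1, with 0.17 FPKM. Summed over all members, nuclear subunits took 0.989% ± 0.164 (SD, n = 3) of all FPKM at P8, 0.931% ± 0.0469 at P10, 1.18% ± 0.0368 at P13, 1.52% ± 0.225 at P21 and 1.40% ± 0.227 at P33. Adipocytes gave 2.94% ± 0.0698, above every lipochondrocyte library. Libraries of one stage were least alike at P21, with 1.27%, 1.58% and 1.70%, and at P33, with 1.25%, 1.28% and 1.66%, so the P21 and P33 sums overlap. Adipocytes had the highest mean of the 6 groups for 67 of the 82 tested members, P21 for 8, P33 for 4, P13 for 2 and P8 for 1. Among the lipochondrocyte stages alone, the highest mean fell at P21 for 48 members, and the lowest at P10 for 57.

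**Figure D1:**
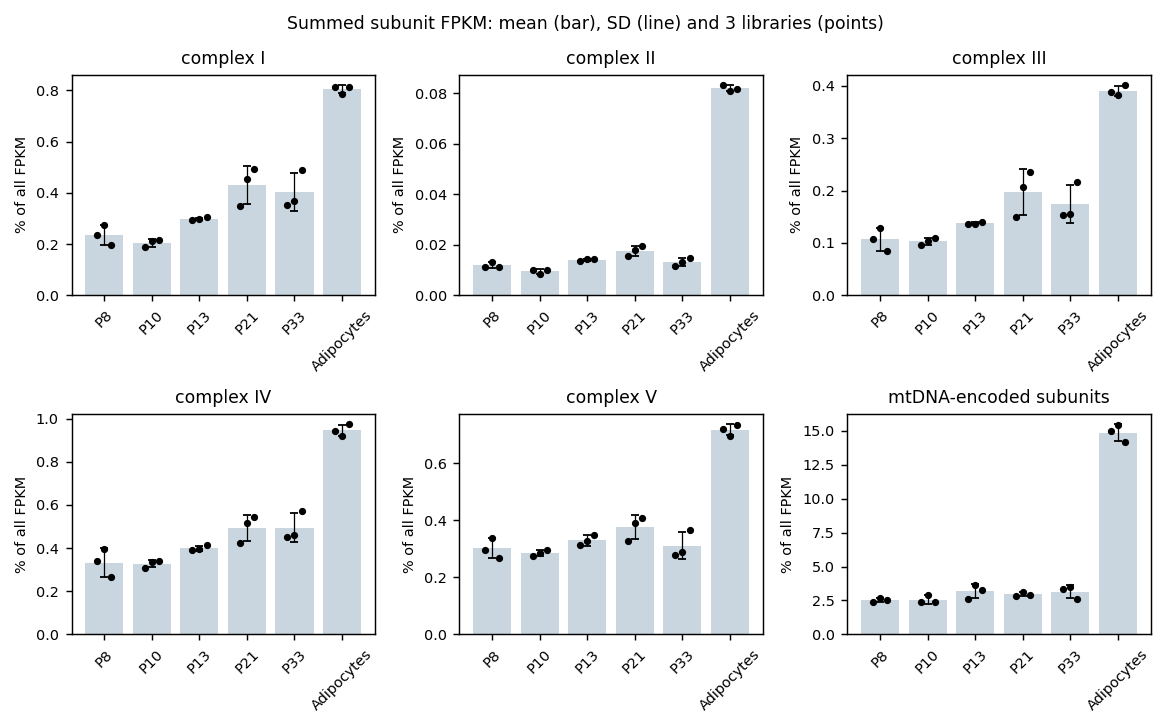
Summed FPKM of the nuclear subunits of complexes I to V and of the 13 subunits encoded in mitochondrial DNA, as a percent of all FPKM (y axes, each from 0), in the 6 groups (x axes). Bars are means, error bars the SD and points the 3 libraries; complex I runs from a mean of 0.205% at P10 to 0.431% at P21 and 0.805% in adipocytes.

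Each complex took a smaller share of FPKM in every P33 library than in every adipocyte library. Complex I took 0.402% of FPKM at P33 and 0.805% in adipocytes, complex III 0.174% and 0.391%, complex IV 0.495% and 0.946%, and complex V 0.311% and 0.717%. Complex II, the smallest of the 5, took 0.0132% and 0.0820%.

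The comparison of P33 lipochondrocytes with adipocytes of the same age asks how the 2 lipid-storing cells differ. Of the 82 members tested, 63 were lower in lipochondrocytes and 3 were higher by limma. Over all genes tested, 44.5% were lower and 24.0% higher, against 76.8% and 3.66% of the members. The median member differed by -1.09 on the log2(FPKM + 1) scale and the median gene by -0.28. By complex, 29 of 35 complex I members were lower, with a median log2 difference of -1.23; 4 of 4 of complex II, with -2.33; 6 of 8 of complex III, with -1.72; 12 of 18 of complex IV, with -0.98; and 12 of 17 of complex V, with -0.93. The 3 that were higher were Cox4i2, Cox7a2l and Atp5g1. Of the 66 calls, 62 held without each of the 6 libraries in turn. Removing transcripts of mitochondrial DNA and rescaling raised the number lower to 74 of 82, with 57.7% of all genes lower, and moved the all-gene median to -0.66. With median-of-ratios scaling 53 members were lower and 4 higher, beside 34.1% and 30.7% of all genes. The median member then differed by -0.76.

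**Figure D2:**
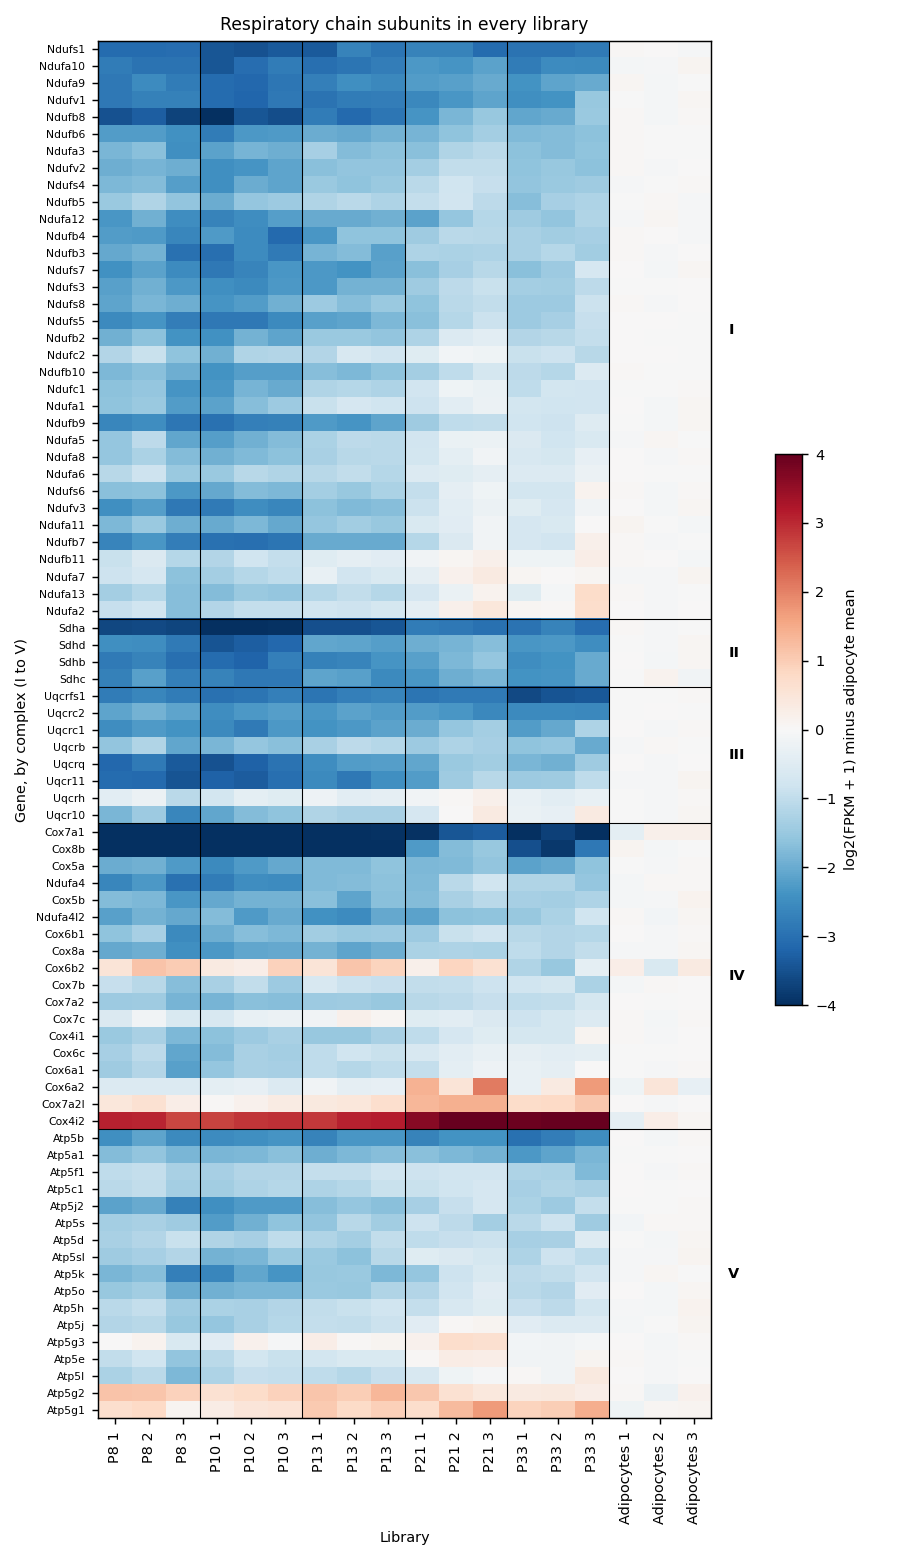
The tested members but 1 (rows, by complex and sorted by P33 minus adipocytes) in each of the 18 libraries (columns), as log2(FPKM + 1) minus the adipocyte mean. Blue is below and red above adipocytes; most rows are blue in all lipochondrocyte libraries, and the Cox4i2 row is red in all 15.

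The 4 subunits of succinate dehydrogenase, the complex that joins the TCA cycle to the chain, were all lower at P33. Sdha, the flavoprotein that oxidises succinate (chromosome 13, 74322254 to 74350280, minus strand, mm10), measured 33.31, 40.67 and 31.08 FPKM in P33 libraries and 273.85, 257.05 and 265.12 in adipocytes. Its log2 difference was -2.89 (SE 0.09, adjusted p = 4.66e-13), a 7.58-fold higher mean in adipocytes, and the groups lie far apart. Sdhb, the iron-sulfur subunit, held 61.02, 65.54 and 85.07 FPKM against 344.94, 326.64 and 363.71 (log2 difference -2.29, SE 0.17, adjusted p = 1.44e-08). The membrane anchors Sdhc and Sdhd differed by -2.25 and -2.37. Sdhd ran at 17.88, 18.41 and 15.76 FPKM at P33 and at 93.11, 89.88 and 97.90 in adipocytes. No library of P33 came near the adipocyte range for any of the 4.

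Catalytic and core members of other complexes named here were also lower, each in all 3 libraries. Uqcrfs1, the Rieske iron-sulfur protein of complex III (chromosome 13, 30540308 to 30545362, minus strand), measured 19.08, 21.74 and 22.43 FPKM at P33 and 243.51, 242.28 and 251.33 in adipocytes. Among members of complexes I, II, III and V, its log2 difference of -3.48 (SE 0.10, adjusted p = 8.67e-14) was the furthest from 0. Ndufs1, the large iron-sulfur subunit of complex I, measured 9.33, 9.33 and 10.27 FPKM against 82.16, 80.03 and 76.51, a log2 difference of -2.92 (SE 0.14, adjusted p = 7.25e-11). The complex I subunits Ndufv1, which binds NADH and the flavin, and Ndufv2, an iron-sulfur protein beside it, differed by -2.12 and -1.59, and the quinone-side subunits Ndufs3, Ndufs7 and Ndufs8 by -1.26, -1.26 and -1.25. Uqcrc1 and Uqcrc2, the core proteins of complex III, differed by -1.83 and -2.56; Uqcrc2 was even among P33 libraries, at 27.27, 27.29 and 26.76 FPKM, while Uqcrc1 was higher in library 3, at 72.00, 80.91 and 143.92.

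Atp5b, the catalytic beta subunit of ATP synthase (chromosome 10, 128083273 to 128090391, plus strand), was the member with the highest level in adipocytes. It measured 2323.60, 2187.62 and 2372.68 FPKM there and 288.50, 334.25 and 404.85 at P33, a log2 difference of -2.75 (SE 0.15, adjusted p = 2.46e-10). The alpha subunit Atp5a1 differed by -2.08 and the gamma subunit Atp5c1, the rotating shaft, by -1.27. Atp5e, the epsilon subunit of the same catalytic head, averaged 340.5 FPKM at P33 and 354.1 in adipocytes, a log2 difference of -0.06 with an adjusted p of 0.759.

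In complexes I and III, core subunits include those that transfer electrons, and supernumerary subunits surround them. Among the members, all 10 core subunits were lower at P33, with a median log2 difference of -1.94. Of the 33 supernumerary subunits 25 were lower, with a median of -0.91. The core genes are longer, with a median of 2245.5 exonic bases against 1217. Over all genes with a length, those of at most 1000 exonic bases had a median of 0.38 and longer ones of -0.35, so gene length moved with the result; its part was not tested. Members of at most 1000 bases had a median of -0.93 and longer members -1.22.

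The 16 members not called in this comparison included 8 of complexes I and III: Ndufs6, Ndufa2, Ndufa7, Ndufa13, Ndufb7, Ndufb11, Uqcrh and Uqcr10. The other 8 were Cox4i1, Cox6a1, Cox6c, Cox6a2, Atp5e, Atp5g2, Atp5g3 and Atp5l. Several of these are among the highest members at P33, Cox4i1 with a mean of 1206 FPKM, Cox6a1 with 1109 and Uqcr10 with 824. Ndufa13, like Ndufb6 and Atp5o, shares at least 20% of its exonic bases with another gene, and whether the counting used strand is not given in the sources used here.

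**Figure D3:**
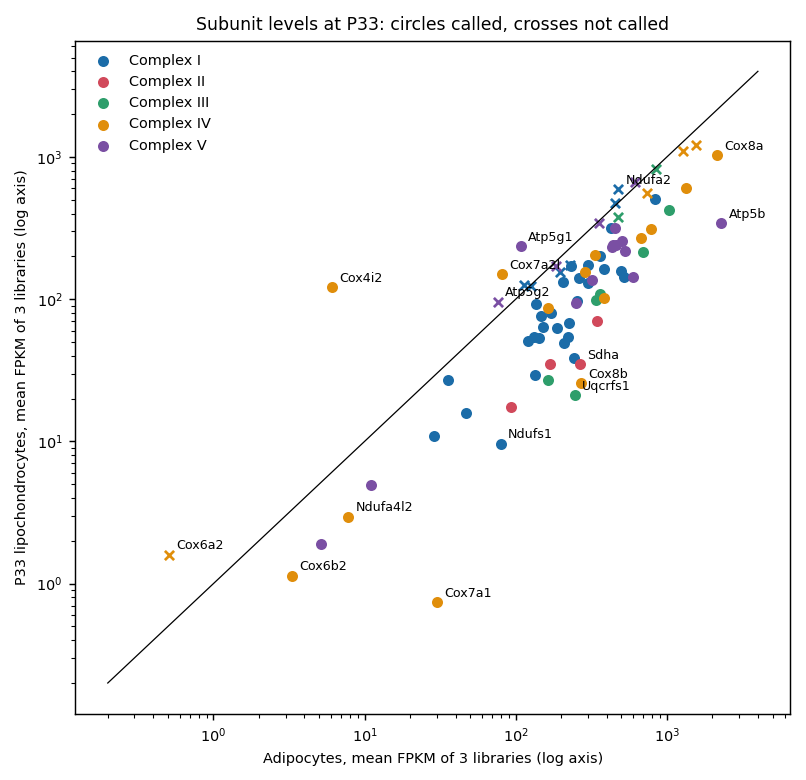
Mean FPKM of each member in adipocytes (x axis) and P33 lipochondrocytes (y axis), both on log scales, with the line of equal levels; n = 3 libraries a group. Circles are members called by limma and crosses are not called; Cox4i2 lies far above the line at 121 against 6.10 FPKM and Cox7a1 far below it.

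Complex IV held the members furthest from the rest, and these were isoforms that replace a general subunit. Promoters of 4 members are shown to set the paired isoforms Cox8a and Cox8b side by side, next to Cox7a2l, higher in lipochondrocytes, and Atp5g3, a c-ring gene with means of 170.8 FPKM at P33 and 184.3 in adipocytes. Each is the 250 bases before the RefSeq gene start on GRCm38.p6, minus strand, in capitals where a searched motif was found:
Cox8a: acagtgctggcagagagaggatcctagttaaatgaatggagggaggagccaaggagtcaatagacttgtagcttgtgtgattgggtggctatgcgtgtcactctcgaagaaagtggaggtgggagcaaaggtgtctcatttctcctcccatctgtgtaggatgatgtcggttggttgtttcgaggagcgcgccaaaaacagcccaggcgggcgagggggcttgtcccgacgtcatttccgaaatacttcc
Cox8b: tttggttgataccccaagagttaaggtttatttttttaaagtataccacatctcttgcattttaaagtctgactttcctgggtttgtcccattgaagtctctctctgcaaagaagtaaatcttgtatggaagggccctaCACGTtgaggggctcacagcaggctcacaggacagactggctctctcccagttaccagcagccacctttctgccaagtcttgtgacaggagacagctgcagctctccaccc
Cox7a2l: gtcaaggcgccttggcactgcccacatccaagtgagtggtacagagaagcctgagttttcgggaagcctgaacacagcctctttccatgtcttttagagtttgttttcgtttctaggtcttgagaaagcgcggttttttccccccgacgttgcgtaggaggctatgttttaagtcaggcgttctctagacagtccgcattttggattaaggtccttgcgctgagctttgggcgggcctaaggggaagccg
Atp5g3: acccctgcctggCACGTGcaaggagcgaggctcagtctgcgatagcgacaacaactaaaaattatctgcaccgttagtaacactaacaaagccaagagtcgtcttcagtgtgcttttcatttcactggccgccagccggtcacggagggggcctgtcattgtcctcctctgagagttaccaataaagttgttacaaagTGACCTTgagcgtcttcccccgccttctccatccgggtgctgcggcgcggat
They lie at chr19:7217617-7217866, chr7:140900447-140900696, chr17:83514334-83514583 and chr2:73911327-73911576. No annotated exon falls in any of them; the Cox7a2l window lies 2997 bases inside the annotated gene, in an intron. The Cox8b capitals mark the letters ACGTG, the core of a hypoxia-inducible factor motif, read on the other strand 111 bases before the start. In Atp5g3 the same letters occur on both strands of CACGTG, and TGACCTT, the reverse of the estrogen-related receptor motif AAGGTCA, lies 52 bases before the start. No match was found in the 250 bases shown for Cox8a and Cox7a2l. In the window that also holds 50 bases after the start, Cox8a has an ETS match and Atp5g3 an NRF1 match.

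Over the windows of 300 bases around gene starts, 69 members matched a RefSeq entry and 68 of them were tested. NRF1, the nuclear respiratory factor known for binding promoters of respiratory genes, was searched by its consensus and found in 23.5% of these members and 4.78% of all 27025 genes. All motifs were searched on both strands. YY1, searched as AANATGGCG, was found in 13.2% and 2.51%, and the estrogen-related receptor motif AAGGTCA in 11.8% and 4.66%. The ETS motif CCGGAAGT was found in 7.35% and 4.0%, and ACGTG in 27.9% and 19.7%. These are letter matches, not measured binding.

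Cox4i2 is the lung-type isoform of subunit 4, the subunit through which complex IV is regulated by ATP, and is known to respond to oxygen. The gene lies on chromosome 2 from 152754173 to 152765037, plus strand. It measured 104.20, 137.92 and 121.31 FPKM at P33 and 4.51, 7.46 and 6.34 in adipocytes, a 19.9-fold higher mean in lipochondrocytes (log2 difference 4.12, SE 0.20, adjusted p = 5.47e-11). It was already present in sorted cells, with 58.68, 56.78 and 43.61 FPKM at P8 and 49.01, 58.58 and 60.58 at P13. Cox4i2 made up 8.82% of Cox4 FPKM at P8, 9.64% at P33 and 0.390% in adipocytes. The general isoform Cox4i1 stayed the larger part everywhere, at 967.31, 970.26 and 1679.12 FPKM at P33 and 1600.12, 1501.63 and 1596.88 in adipocytes, where the groups overlap (log2 difference -0.43, SE 0.20, adjusted p = 0.075).

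Cox8b, the heart, skeletal muscle and brown fat isoform of subunit 8, went the other way. Adipocytes measured 291.93, 258.76 and 266.15 FPKM, P33 lipochondrocytes 22.72, 17.63 and 36.75, and P21 lipochondrocytes 56.36, 80.76 and 94.58. In the 9 sorted libraries it was listed at 0 or low, the highest being 1.18 FPKM in P13 library 2. P33 differed from adipocytes by -3.42 (SE 0.31, adjusted p = 8.93e-08) on the log2 scale. Cox8b made up 11.3% of Cox8 FPKM in adipocytes, 7.95% at P21 and 2.41% at P33. The general isoform Cox8a was lower too, with 1051.41, 936.00 and 1088.15 FPKM at P33 and 2076.58, 2063.06 and 2257.80 in adipocytes (log2 difference -1.06, SE 0.13, adjusted p = 2.93e-06).

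Cox7a1, the muscle and brown fat isoform of subunit 7a, was listed between 0 and 2.06 FPKM in lipochondrocyte libraries. P33 libraries held 0.47, 1.29 and 0.46 FPKM and adipocytes 22.36, 34.24 and 34.50 (log2 difference -4.18, SE 0.30, adjusted p = 5.75e-09). Its general counterpart Cox7a2 differed by -0.90. Brown adipocyte markers are given beside these isoforms: they summed to 152.93 to 156.13 FPKM in adipocytes, 104.57 to 148.56 at P21 and 67.01 to 92.54 at P33, and Ucp1, the uncoupling protein that defines brown fat heat production, was at 0 in all 15 lipochondrocyte libraries and at 36.7 ± 0.376 FPKM in adipocytes. Cidea alone averaged 95.3 FPKM in adipocytes, 122 at P21 and 72.6 at P33, most of each sum. The part of these markers in the isoform levels was not tested.

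Cox7a2l is a relative of subunit 7a and is described as joining complexes III and IV into supercomplexes. It was the only complex IV member besides Cox4i2 that was higher at P33. It measured 134.87, 142.41 and 172.87 FPKM against 81.92, 78.22 and 82.35 (log2 difference 0.88, SE 0.12, adjusted p = 8.60e-06). Its P21 libraries were higher still, at 204.73, 215.94 and 219.64. Only RNA was measured, so whether the protein forms supercomplexes in mice of this strain was not tested.

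Other isoforms lay at low levels. Cox6b2, the testis isoform of subunit 6b, measured 0.80, 0.44 and 2.16 FPKM at P33 and 3.91, 1.70 and 4.30 in adipocytes, where the groups overlap (log2 difference -1.03, SE 0.32, adjusted p = 0.00992). Ndufa4l2, a hypoxia-responsive relative of the complex IV subunit Ndufa4, held 2.07, 2.70 and 4.11 FPKM against 8.05, 7.19 and 8.23, a log2 difference of -1.19. Ndufa4 itself differed by -1.32, Cox6b1 by -1.14 and Cox7b by -0.92.

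Cox6a2, the heart and muscle isoform of subunit 6a, measured 2.82, 1.09 and 5.12 FPKM at P21 and 0.18, 0.89 and 3.72 at P33. Skeletal muscle markers summed to 321.99, 85.95 and 574.09 FPKM in the same P21 libraries and to 28.52, 56.61 and 226.39 in the P33 libraries, with the same order within each stage. Muscle markers stayed at 5.91 to 38.52 FPKM in sorted cells and 30.25 to 33.96 in adipocytes. Their part in the Cox6a2 level was not tested.

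**Figure D4:**
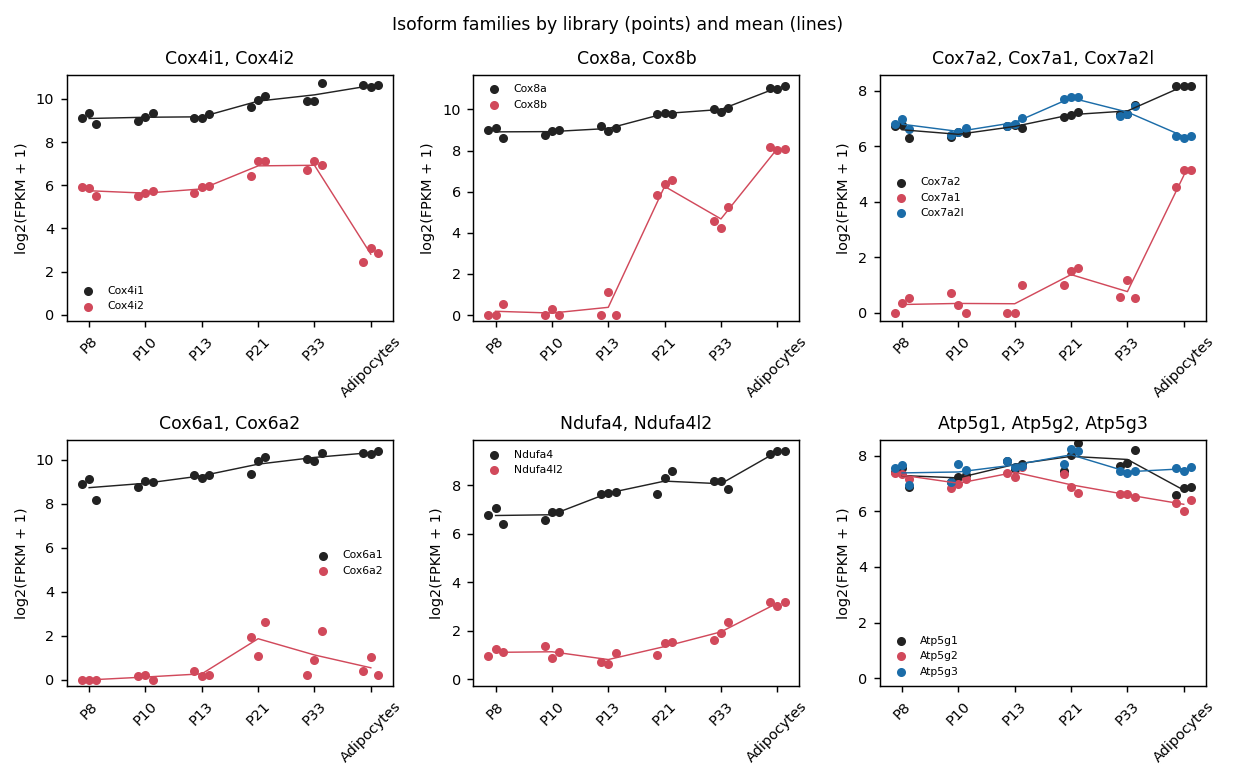
Levels of the isoforms of 6 families (panels) in each library (points, grouped by stage on the x axis), as log2(FPKM + 1). Cox4i2 separates all 15 lipochondrocyte libraries from adipocytes, whereas Cox8b appears at P21 and P33 but stays under the adipocyte libraries.

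The c ring of ATP synthase turns as protons pass, and 3 nuclear genes encode the same mature c subunit. Atp5g1 measured 199.28, 212.62 and 296.97 FPKM at P33 and 94.71, 113.48 and 116.46 in adipocytes (log2 difference 1.10, SE 0.23, adjusted p = 0.000586). Atp5g2 differed by 0.34 (adjusted p = 0.0695) and Atp5g3 by -0.11 (adjusted p = 0.634). Summed over the 3 genes, P33 held 503 ± 52.2 FPKM (SD, n = 3) and adipocytes 368 ± 20.9, with P33 above adipocytes in every library, unlike the sum of complex V as a whole. Mitochondrially encoded genes took 24.5% of FPKM in adipocytes and 5.10% at P33. Rescaling without them raises adipocyte values more than P33 values, so this order is stated for FPKM as deposited only.

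P21 lipochondrocytes were compared with the same 3 adipocyte libraries, so the 2 comparisons are not independent and their values are given side by side. At P21, 59 members were lower than adipocytes and 6 higher, beside 43.1% and 24.5% of all genes tested. The median member differed by -0.99 on the log2 scale and the median gene by -0.25. Cox4i2 differed by 4.09 at P21 and 4.12 at P33, Cox7a2l by 1.39 and 0.88, Atp5g1 by 1.21 and 1.10, Uqcrfs1 by -2.85 and -3.48, and Cox8b by -1.83 and -3.42. The higher members also included Atp5g2, with a log2 difference of 0.70 (adjusted p = 0.00119), Atp5g3, with 0.50 (adjusted p = 0.032), and Cox6a2, with 1.32 (adjusted p = 0.0115). Cox6a2 reached 1 FPKM in 5 libraries, all those of P21 among them, and passed the filter through P21. Its higher level there is therefore not separate support. Without P21 library 3, the library with the highest muscle marker sum, the adjusted p of Cox6a2 became 0.0661. Without mitochondrial transcripts neither Atp5g2, with 0.29 (adjusted p = 0.108), nor Atp5g3, with 0.09 (adjusted p = 0.636), was called. The call of Atp5g3 was also lost without P21 library 2, P21 library 3 or any 1 of the adipocyte libraries, with adjusted p up to 0.118.

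Between sorted stages the changes were smaller. From P8 to P10, 4 members fell by limma, beside 9.14% of all genes tested. None rose, also at an unadjusted p under 0.05, beside 1.90% of all genes. Those that fell included Sdhd, with a log2 difference of -0.72 (SE 0.12, adjusted p = 0.00197), Ndufv2 with -0.37 and Sdha with -0.35. Leaving out P8 library 1, P8 library 2, P10 library 1 or P10 library 2 left 1 call each. Median-of-ratios scaling left 0, with 2 members falling and 4 rising at an unadjusted p under 0.05 by limma. That scaling also turned the median member from -0.15 to 0.17.

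From P10 to P13, 32 of the 82 members rose by limma, 39.0% of them, beside 18.6% of all genes tested. None fell, also at an unadjusted p under 0.05, beside 4.03% of all genes. The median member differed by 0.45 and the median gene by 0.15, and 78 of 82 members lay above 0. Those that rose were 22 of 35 members in complex I, 3 of 4 in complex II, 2 of 8 in complex III, 3 of 18 in complex IV and 2 of 17 in complex V; whether these shares differ was not tested. The count depends on the scaling and on single libraries. With median-of-ratios scaling, which moves the median gene to 0, 4 members rose, beside 8.40% of all genes, and 0 fell, with 2 falling at an unadjusted p under 0.05. It was 12 without P10 library 1, 15 without P13 library 3 and 19 without P13 library 2.

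Sdhd led the rise from P10 to P13. It measured 7.56, 8.61 and 9.74 FPKM at P10 and 21.17, 21.08 and 19.43 at P13 (log2 difference 1.17, SE 0.12, adjusted p = 1e-05). It was also 1 of the 4 members that rose with median-of-ratios scaling, where it differed by 0.92 (adjusted p = 0.000317), with Ndufv2, Ndufv3 and Ndufa1. Ndufa1, a small membrane subunit of complex I, went from 66.31, 89.96 and 107.28 FPKM to 159.28, 186.69 and 171.71 (log2 difference 0.99, SE 0.20, adjusted p = 0.00305). Ndufv2 went from 33.67, 35.95 and 43.11 FPKM to 58.67, 62.95 and 63.14 (log2 difference 0.70, SE 0.11, adjusted p = 0.000356). P10 and P13 libraries did not overlap for Sdhd, Ndufa1 or Ndufv2.

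Among called members, the largest rises in the other complexes were those of Uqcrq, a small subunit of complex III, from 61.12, 73.64 and 89.81 to 123.04, 146.85 and 149.46 FPKM, and of Ndufa4, from 94.78, 117.64 and 117.22 to 198.12, 201.98 and 212.27. In complex V it was Atp5j2, subunit f of the membrane part, with a log2 difference of 0.67 (SE 0.18, adjusted p = 0.0159). P13 against P8, which shares its P13 libraries with the previous comparison, called 5 members higher, beside 2.69% of all genes tested: Ndufa1 with 0.99, Ndufa4 with 0.93, Ndufv3 with 0.79, Uqcrq with 0.79 and Sdhd with 0.45. None was called lower, also at an unadjusted p under 0.05, beside 1.52% of all genes. Without P8 library 1, P8 library 3 or any of the P13 libraries 1 call was left, and without P8 library 2 there were 8.

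From P13 to P21, where the isolation method changes too, 50 members were higher and 2 lower, 61.0% higher beside 36.0% of all genes tested and 7.04% lower. The median member differed by 0.60 and the median gene by 0.29. In complex I, 28 of 35 members were higher and none lower, also at an unadjusted p under 0.05. Markers of other cells moved at the same step: muscle markers rose in 8 of 8 genes tested, from sums of 24.57 to 38.52 FPKM at P13 to 85.95 to 574.09 at P21, macrophage markers in 6 of 8, from 3.27 to 3.92 to 16.39 to 27.17, and erythroid markers in 4 of 5, from 4.74 to 7.86 to 84.34, 213.89 and 450.71. These sums hold all listed genes, 12 for muscle and 7 for erythroid cells, of which 8 and 5 passed the filter. The part of these markers in the subunit counts was not tested. Scaling bears on the split. With median-of-ratios scaling 11 members were higher and 8 lower, beside 15.9% and 16.7% of all genes, and the median member differed by 0.16. Without transcripts of mitochondrial DNA 33 were higher and 4 lower, beside 22.4% and 9.36% of all genes. The 11 that stayed higher with median-of-ratios scaling were Ndufs3, Ndufv3, Ndufa11, Ndufb7, Ndufb9, Cox4i2, Cox6a2, Cox7a1, Cox8b, Cox7a2l and Atp5sl. Cox6a2, counted here and among the 50, passed the filter through P21, so its call is not separate support. Ndufb6, Cox7a2 and Atp5c1, higher as deposited, lay below 0 with that scaling.

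Cox8b had the largest difference between P13 and P21, from 0.00, 1.18 and 0.00 to 56.36, 80.76 and 94.58 FPKM (log2 difference 5.88, SE 0.31, adjusted p = 2.32e-09). Summed brown adipocyte markers went from 25.49 to 27.71 FPKM at P13 to 104.57 to 148.56 at P21, with Ucp1 at 0 in both. Most of that sum was 1 gene, Cidea, with means of 18.1 FPKM at P13 and 122 at P21. Of the 8 brown adipocyte markers 3 were higher and 0 lower, beside 36.0% and 7.04% of all genes tested. Their median log2 difference was 0.1. Muscle markers rose as given above. The part of either list in the Cox8b level was not tested. Cox4i2 went from 49.01, 58.58 and 60.58 FPKM to 85.72, 140.16 and 136.98 (log2 difference 1.07, SE 0.20, adjusted p = 0.000627), and Cox7a2l from 106.22, 110.04 and 129.28 to 204.73, 215.94 and 219.64 (0.89, SE 0.12, adjusted p = 3.44e-05). All P21 libraries lay above all P13 libraries for these 3. Ndufb7, a complex I subunit on the intermembrane side, went from 48.23, 48.15 and 47.72 to 88.27, 130.52 and 178.08 FPKM, a log2 difference of 1.39 (SE 0.24, adjusted p = 0.000379). Uqcr10, a small complex III subunit, differed by 1.17 (adjusted p = 0.0043), and Atp5e by 0.86 (adjusted p = 0.000791). At P21 Ndufb7 and Uqcr10 rose from library 1 to library 3, as did the erythroid marker sums. Cox8b, Cox7a2l and the sum over all members had the same order. The part of erythroid cells was not tested.

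The 2 lower members were Cox7c, a small membrane subunit of complex IV, and Atp5g2. Cox7c went from 302.91, 382.80 and 351.19 FPKM to 236.13, 245.58 and 224.15 (log2 difference -0.55, SE 0.14, adjusted p = 0.00699). Atp5g2 went from 165.27, 150.72 and 192.70 to 160.84, 115.45 and 100.78, where the groups overlap (log2 difference -0.45, SE 0.16, adjusted p = 0.0339). Without P13 library 1, P13 library 3, P21 library 2 or P21 library 3, 1 of these 2 calls was left.

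From P21 to P33, both collected by flotation, 10 members fell by limma, 12.2% beside 7.17% of all genes tested. None rose by that test, beside 2.87% of all genes, and 2 were higher at an unadjusted p under 0.05; without P33 library 1 there was 1 call. The median member differed by -0.12 and the median gene by -0.02. Cox8b went from 56.36, 80.76 and 94.58 to 22.72, 17.63 and 36.75 FPKM (log2 difference -1.58, SE 0.31, adjusted p = 0.00394). Cox6b2 differed by -1.59 (SE 0.32, adjusted p = 0.0051), from 3.75, 6.43 and 5.35 to 0.80, 0.44 and 2.16 FPKM. Uqcrfs1 went from 31.82, 33.91 and 33.60 to 19.08, 21.74 and 22.43 FPKM (log2 difference -0.63, SE 0.10, adjusted p = 0.000853), and all P33 libraries lay below all P21 libraries for these 3. The others were Atp5f1, the b subunit of the ATP synthase stalk, with -0.64, Ndufc2 with -0.70, Ndufs4 with -0.56, Sdhd with -0.53, Cox7a2l with -0.51, Atp5c1 with -0.49 and Ndufv2 with -0.47. With only the P21 and P33 libraries in the fit, 0 members fell at the adjusted threshold and 14 at an unadjusted p under 0.05.

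**Figure D5:**
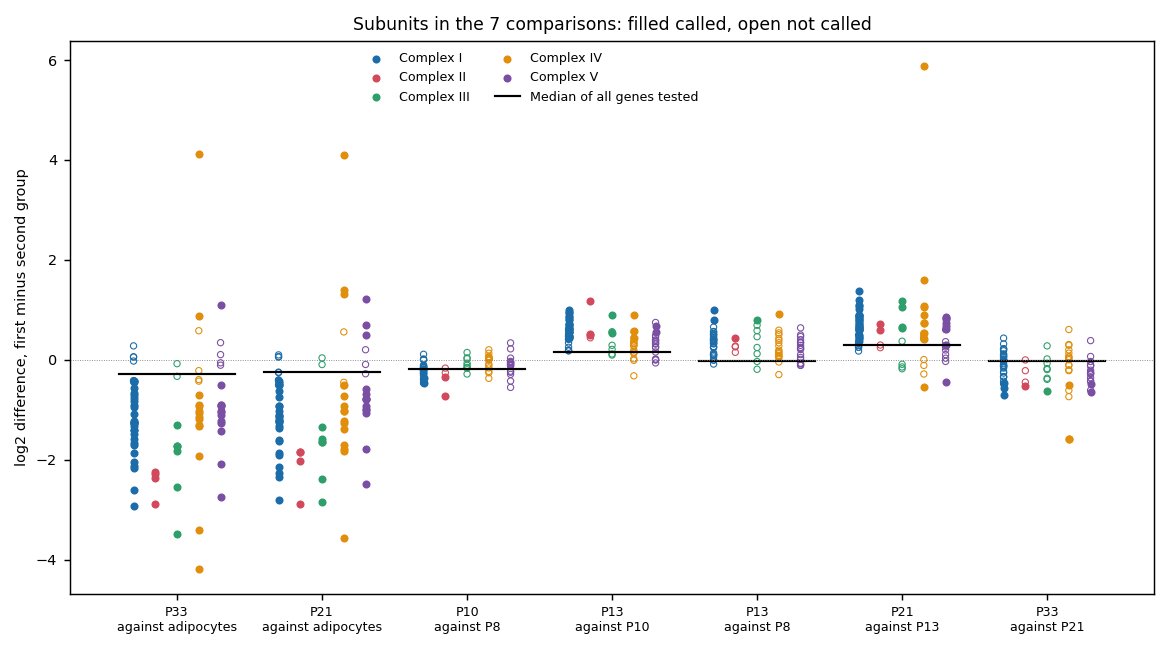
Log2 difference (y axis) of each of the 82 members in the 7 comparisons (x axis), by complex. Filled points are called by limma and open points are not; the black line is the median of all genes tested, for instance -0.28 in P33 against adipocytes and 0.29 in P21 against P13.

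The subunits encoded in mitochondrial DNA, the partners of these proteins in the complexes, took 14.8% ± 0.623 (SD, n = 3) of FPKM in adipocytes and 3.15% ± 0.460 at P33, and 11 of 13 were lower at P33, with a median log2 difference of -2.51. From P10 to P13, where 32 nuclear members and 18.6% of all genes tested rose, mt-Nd5 was the 1 mitochondrial subunit called, with a log2 difference of 0.64 (adjusted p = 0.0185). At an unadjusted p under 0.05 by limma, 4 of the 13 rose and 0 fell. Their median log2 difference was 0.40, beside 0.45 for the nuclear members. Their mean share of FPKM went from 2.56% to 3.19%.

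Other mitochondrial gene lists gave values beside those of the subunits in P33 against adipocytes, where 44.5% of all genes tested were lower and 24.0% higher. All 13 TCA cycle genes were lower, with a median of -2.64. Citrate synthase, Cs, averaged 11.1 FPKM at P33 and 173 in adipocytes (log2 difference -3.84, adjusted p = 2.67e-13). All 13 electron carrier and coenzyme Q synthesis genes were lower, with a median of -1.26; cytochrome c, Cycs, averaged 3.74 and 33.6 FPKM. Of the outer membrane and import genes 15 of 16 were lower, with Hspd1, the mitochondrial chaperonin, at -3.06. Of the biogenesis regulators 10 of 14 were lower, with Ppara at -2.71. Ppara, Ppargc1a and Ppargc1b reached 1 FPKM in adipocyte libraries only. They passed the filter through that group, so lower values in lipochondrocytes follow from the filter and are not separate support.

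Assembly factors, which build the complexes without staying in them, were lower for complex I in 13 of 14 genes, with a median of -1.18, for complex IV in 16 of 20 and for complexes II, III and V in 10 of 14. Tmem126b of complex I assembly differed by -2.35, Cox19 of complex IV assembly by -2.64 and Atpaf2 of ATP synthase assembly by -2.88. Of the hypoxia response genes 2 of 14 were higher and 6 lower, near the shares over all genes tested. In that list Slc2a1, the glucose transporter GLUT1, averaged 84.0 FPKM at P33 and 4.41 in adipocytes (log2 difference 3.85, adjusted p = 4.91e-09), and Bnip3, a mitophagy receptor, differed by -3.26.

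From P10 to P13, 12 of 14 complex I assembly factors rose, 9 of 20 for complex IV and 8 of 14 for complexes II, III and V, beside 18.6% of all genes tested, and none of these fell, also at an unadjusted p under 0.05. With median-of-ratios scaling 6, 5 and 6 rose, beside 8.40% of all genes. Sdhaf4, an assembly factor of succinate dehydrogenase, went from a mean of 5.47 to 15.1 FPKM (log2 difference 1.30, adjusted p = 0.000223), Coa6 of complex IV assembly differed by 1.10 (adjusted p = 0.00127) and Tmem126b by 0.90 (adjusted p = 0.000183). TCA cycle genes rose in 6 of 13, with Suclg1 at 0.76, and in 1 with median-of-ratios scaling, where 1 fell. None of the 14 biogenesis regulators was called, with 3 rising at an unadjusted p under 0.05.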

How the data were processed

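RNA of 18 libraries, 3 in each of 6 groups, was sequenced by the authors and aligned with STAR 2.4.2a to mm10, per the submitters' processing notes; no source used here gives the quantifier, annotation or strand setting. The authors deposited FPKM per gene and library, and a table of read counts (12461965 to 27640142) and percent aligned per library, deposited with it. No read counts per gene were used, so counting error per gene is unknown. FPKM is relative to all mapped fragments, so a change in a few abundant transcripts shifts every other value.

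The 13815 of 46983 genes that reached 1 FPKM in 3 or more libraries were fitted as log2(FPKM + 1) with limma 3.58.1 in R 4.3.3, with a trended prior, 6 group means over all 18 libraries, and Benjamini-Hochberg adjustment over all genes within each of 7 comparisons; the call was an adjusted p under 0.05. The scripts were tested on simulated data. Sums, shares and figures used Python 3.11.15 and matplotlib 3.10.9. No pair of libraries held identical values. Positions come from GENCODE M21 on mm10, matched by gene ID, and promoters from RefSeq GRCm38.p6.

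The members and the 16 other gene lists (197 genes) were chosen with earlier results of these data known. Named were the isoform families, complex II, the core subunits, in each comparison and complex the called members with the largest rise and fall, members under the filter, and of each other list up to 3 called genes with the largest change at P33 against adipocytes and at P13 against P10; other members named were chosen after their values were seen, and a few genes are not reported here. The lists of assembly factors (3), carriers, TCA cycle, biogenesis regulators, outer membrane and import, mitochondrial DNA, hypoxia and 7 of cell markers were drawn up as textbook lists. In P33 against adipocytes the marker lists gave, higher and lower, 7 and 0 of 8 for muscle, 2 and 6 of 8 for brown adipocytes, 0 and 10 for adipocytes, 11 and 0 for chondrocytes, 0 and 8 for endothelium, 0 and 8 for macrophages and 0 and 5 for erythroid cells by limma, with the same counts of 0 at an unadjusted p under 0.05. Some of these calls follow from the filter and are not separate support. Ucp1 and Lep, at 0 in every lipochondrocyte library, passed it through adipocytes only. Chondrocyte markers at 0 in every adipocyte library, Acan among them, passed it through lipochondrocytes only. Alternatives were a pseudocount of 0.1, no filter, median-of-ratios scaling, removal of mitochondrial transcripts with columns rescaled to 1000000, the groups compared alone, a replicate block, and leaving out each library.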

Additional observations from a re-analysis of the deposited data

How the results depend on the processing

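In the adipocyte comparisons the counts kept within 1.5 times under all alternatives: members lower than adipocytes numbered 53 to 74 at P33 and 49 to 71 at P21. The lowest counts came with median-of-ratios scaling, where 34.1% and 33.6% of all genes were lower. The highest came without mitochondrial transcripts. The counts between stages moved more, and the cause was not tested. With median-of-ratios scaling, 4 members rose from P10 to P13, 11 were higher and 8 lower at P21 than at P13, and 0 fell from P8 to P10. In that last step 2 fell and 4 rose at an unadjusted p under 0.05 by limma. Without mitochondrial transcripts, 33 were higher and 4 lower at P21 than at P13. Without the filter, 2 fell from P8 to P10, 3 were higher at P13 than at P8 and 1 lower at P21 than at P13. With only the 2 groups in the fit, 1 fell from P8 to P10, 1 was higher at P13 than at P8, 1 lower at P21 than at P13, and 0 fell from P21 to P33, where 14 fell at an unadjusted p under 0.05.

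Leaving out each library gave 12 to 29 members rising from P10 to P13, 1 to 5 falling from P8 to P10, 1 to 8 higher at P13 than at P8, 36 to 57 higher and 1 to 2 lower at P21 than at P13, and 0 to 1 rising and 7 to 13 falling from P21 to P33. Calls kept without each library in turn numbered 62 of 66 at P33 and 59 of 65 at P21 against adipocytes, 11 of 32 from P10 to P13 and 36 of 52 from P13 to P21.

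The replicate block gave 62 members lower at P33 than adipocytes, 35 rising from P10 to P13 and 50 higher at P21 than at P13. Same-numbered libraries deviated together with correlations of -0.168 to 0.206, and in no comparison were all 3 above 0.1, so the numbers are not taken to pair the libraries.

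Of single members called in the main fit or under an alternative, 10 values turned direction, and 9 are given. Without mitochondrial transcripts Ndufa7 differed by -0.45 and Atp5l by -0.40 at P33 against adipocytes, and Ndufb11 by -0.36 and Uqcrh by -0.38 at P21. With median-of-ratios scaling Ndufb6 differed by -0.076, Cox5a by -0.44, Cox7a2 by -0.024, Atp5a1 by -0.42 and Atp5c1 by -0.15 at P21 against P13. Of all member values under the alternatives, 92.9% kept their side of the threshold, and the called ones among them kept direction. Direction was not compared where neither fit called the member. With the 0.1 pseudocount, Cox8b was not called at P21 against adipocytes or at P33 against P21. Counts per gene were not used, so the depth behind low values such as Cox8b in sorted cells is unknown.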
